A study of Homo sapiens with 6 samples.

Results

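The glypicans GPC1 to GPC6 and the syndecans SDC1 to SDC4 are the membrane-bound carriers of heparan sulfate, and their RNA was followed while human embryonic stem cells were turned into neural crest. The 10 genes were taken by symbol from a table of 23284 genes, 6 of them glypicans and 4 syndecans, and all 10 were found. Poly-adenylated RNA came from 6 libraries of WA01, an established line of human embryonic stem cells, wildtype by genotype: 2 of undifferentiated stem cells (ES, day 0), 2 of pre-neural crest cells (preNC, day 3) and 2 of neural crest cells (NC, day 5). The labels list the same medium for every library, day 0 included, with 3 µM of the GSK3 inhibitor CHIR99021, which activates WNT signalling, and 10 µM of the ROCK inhibitor Y-27632 at the start. All libraries are from 1 cell line, and nothing says whether the libraries of a group came from separate cultures, so p-values may cover technical spread alone.

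Glypicans are tied to the outer membrane by a lipid (GPI) anchor, and syndecans cross the membrane with a short cytoplasmic tail. Both carry long sulfated sugar chains that bind WNT, BMP, FGF and Hedgehog proteins, so they act as co-receptors, stores and barriers for the signals that pattern the early embryo. Syndecans also join the matrix to the cytoskeleton, and SDC4 is needed for directed migration of neural crest cells in Xenopus and zebrafish.

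The deposited table holds 1 FPKM value (a fragment count per transcript length and sequencing depth) per gene and day, with both libraries of a day combined, so no value per library and no SD could be given, and the depth of the libraries is unknown. Calls of higher or lower need a q under 0.05, taken from the authors' deposited table. Values after ± are standard errors, obtained as the log2 ratio over the test statistic of that table. They do not always match the deposited p: for SDC1 on day 3 against day 0 the p in the authors' deposited table is 5e-05, where a normal distribution of the statistic gives 0.00485. That Cuffdiff p is the smallest deposited, is shared by 4078 cases and goes with a q of 0.000596. A q of 0.000596 is thus a floor and does not rank genes. SDC3 on day 3 against day 0 (test statistic 6.30) and SDC2 on day 5 against day 0 (2.71) share it. The labels of the days were set against marker genes. The summed FPKM of 5 embryonic stem cell markers was 1844 at day 0, 445 at day 3 and 143 at day 5, and SOX2, at 203, 341 and 129 on the same days, held most of the sum on days 3 and 5, while NANOG and TDGF1 were below an FPKM of 1 on both. The 7 neural crest markers summed to 23.7, 18.3 and 169, and FOXD3 alone stood at 17.9, 0.876 and 15.4, while the other 6 each had a higher value at day 3 than at day 0. Of the 7 neural crest markers, 4 were below an FPKM of 1 at day 0, 2 at day 3 and 0 at day 5. The summed FPKM on days 0, 3 and 5 was 205, 319.9 and 144 for 3 neuron markers, mostly TUBB3. Of the other neuron markers, STMN2 stood at 2.60, 27.4 and 7.94 on these days, and ELAVL4 was below an FPKM of 1 on each. The sum on the same days was 22.4, 3.32 and 2.77 for 3 endothelial markers, mostly KDR, and 5.52, 4.11 and 2.69 for 5 mesendoderm markers. The 3 endoderm markers summed to at most 0.183, the 2 muscle markers to at most 0.212 and the 3 placode and nonneural ectoderm markers to at most 2.03, of which KRT8 is listed at 0 with a failed estimate. Fewer cells of a type and less RNA per cell cannot be told apart in such libraries, and the part of other cell types in the results was not tested.

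Among the glypicans, GPC4 was the one with the highest FPKM in stem cells and fell at both steps, while GPC6, GPC3 and GPC2 rose between day 3 and day 5. GPC4 has been used as a surface marker of stem cells and modulates WNT and FGF signals. It stood at an FPKM of 111 at day 0, 33.5 at day 3 and 18.5 at day 5. The level went down on each later day, and GPC4 ranked 4461st of all genes on day 5, against 901st on day 0. On the log2 scale GPC4 fell by 1.73 ± 0.40 up to day 3 and again fell by 0.86 ± 0.39 up to day 5. Over the whole course it fell by 2.59 ± 0.41, to a level 6.01-fold lower at day 5 than at day 0. In the authors' deposited table the q was 0.000596 for the first step, 0.0171 for the second and 0.000596 for the whole course.

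GPC6, whose loss causes the skeletal disorder omodysplasia, stood at an FPKM of 3.44 at day 0, 2.81 at day 3 and 10.6 at day 5. Days 0 and 3 were close to each other, with no call between them (log2 ratio -0.29 ± 0.48), and day 5 stood above both. Day 5 was 3.78-fold above day 3 (log2 ratio 1.92 ± 0.45) and 3.08-fold above day 0 (log2 ratio 1.62 ± 0.45), each at q = 0.000596 in the authors' deposited table.

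GPC3, an oncofetal protein whose loss causes the overgrowth disorder Simpson-Golabi-Behmel syndrome and which restrains Hedgehog signalling in mice, stood at an FPKM of 63.9 at day 0, 45.8 at day 3 and 84.4 at day 5. Its lowest value was on day 3, and it rose 1.84-fold in the step of day 3 to day 5 (log2 ratio 0.88 ± 0.43), with q = 0.0163 in the authors' deposited table. The ratio of day 3 to day 0 was -0.48 ± 0.39 and that of day 5 to day 0 was 0.40 ± 0.40 on the log2 scale, neither called. GPC2, known as cerebroglycan from the developing nervous system of the rat, had the same order of days, with an FPKM of 27.2 at day 0, 21.7 at day 3 and 43.0 at day 5. It rose 1.98-fold in the step of day 3 to day 5 (log2 ratio 0.98 ± 0.32), with q = 0.00401 in the authors' deposited table. From day 0 to day 5 the log2 ratio of GPC2 was 0.66 ± 0.32, at q = 0.0698 in the authors' deposited table and so not called.

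GPC1, a widely expressed glypican that binds FGFs, stood at an FPKM of 17.4 at day 0, 29.0 at day 3 and 25.0 at day 5. It rose 1.67-fold in the step of day 0 to day 3 (log2 ratio 0.74 ± 0.28), with q = 0.0349 in the authors' deposited table, and day 5 was called different from neither earlier day. MIR149 and PP14571 are listed at the same locus, at an FPKM of at most 0.0865, and the loci of the other 9 members overlap no other gene of the table. GPC5, the close relative of GPC3, was near the floor, with an FPKM of 0.0358 at day 0, 0.0755 at day 3 and 0.252 at day 5. Its day 3 value was not tested against day 0. Day 5 was called higher than day 0 (log2 ratio 2.82 ± 1.12, with q = 0.0294 in the authors' deposited table), with both values below an FPKM of 1.

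**Figure D1:**
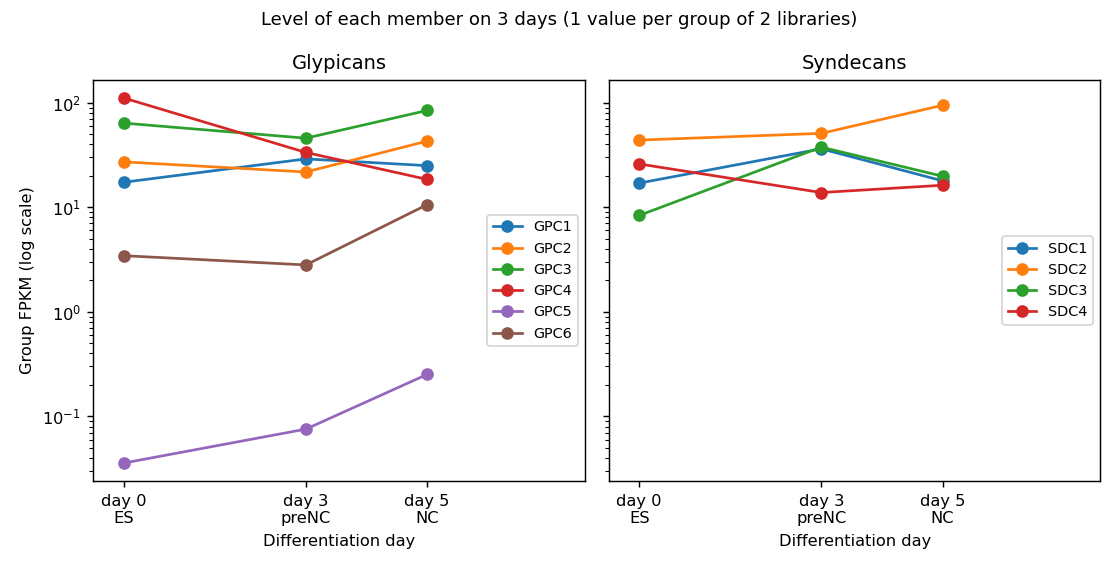
Group FPKM on a log axis against differentiation day, with 1 line per gene for glypicans (left) and syndecans (right) and 1 value per day for both libraries together. GPC4 starts at 111 as the highest glypican and ends at 18.5 below GPC3, GPC2 and GPC1, while SDC1 and SDC3 peak on day 3 at 36.2 and 37.6.

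GPC4 held the largest share of the glypican sum on day 0 and GPC3 on days 3 and 5. The sum of the 6 FPKM values was 223 at day 0, 133 at day 3 and 182 at day 5. GPC4 made up 49.8% of that sum at day 0, 25.2% at day 3 and 10.2% at day 5. GPC3 made up 28.6%, 34.5% and 46.4% on the same days, and GPC2 12.2%, 16.4% and 23.6%. The ratio of GPC3 to GPC4, which no common scaling of both libraries of a day can move, was 0.575 at day 0, 1.37 at day 3 and 4.57 at day 5. GPC3 stood above GPC4 from day 3 on. No spread between libraries stands behind these shares and ratios, and they were not tested.

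Neighbouring pairs of glypicans lie at 2 places in the genome. On chromosome X of hg19, GPC4 (132435064 to 132549205) and GPC3 (132669776 to 133119673) are 121 kb apart with 0 genes of the table between them. On chromosome 13, GPC5 (92050935 to 93519487) and GPC6 (93879078 to 95060273) are 360 kb apart, also with 0 genes between. The X pair went apart between day 3 and day 5, with GPC4 falling and GPC3 rising, whereas both genes of the chromosome 13 pair had their highest value on day 5. GPC5 of that pair stayed below an FPKM of 1 on each day, and its change between day 3 and day 5 was not called. HS6ST2, which adds sulfate to the 6-O position of heparan sulfate, lies 339.6 kb before GPC4, with 2 genes of the table between them. HS6ST2 rose in the same step (an FPKM of 6.41 on day 5, against 1.45 on day 3). The other glypicans are at chromosome 2, 241375115 to 241407495 (GPC1), and chromosome 7, 99767229 to 99774990 (GPC2).

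The promoters of GPC4 and GPC6, the glypicans with the clearest fall and rise, differ in base composition. RefSeq promoter sequences (build GRCh38.p14) were found for 8 of the 10 genes, and the 250 bases before the start are printed 5′ to 3′ on the gene's strand. Capitals mark the GC box (GGGCGG), the TATA box (TATAAA) and the core letters of the TCF/LEF motif of WNT signalling (CTTTGA), each searched on both strands, with overlapping matches kept.
GPC4 (chrX:133415490-133415739, minus strand): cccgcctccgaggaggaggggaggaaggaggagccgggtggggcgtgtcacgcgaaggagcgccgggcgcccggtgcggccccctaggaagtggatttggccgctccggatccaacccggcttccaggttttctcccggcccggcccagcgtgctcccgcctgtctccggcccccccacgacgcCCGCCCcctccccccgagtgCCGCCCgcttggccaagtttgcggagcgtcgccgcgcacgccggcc
GPC6 (chr13:93226557-93226806, plus strand): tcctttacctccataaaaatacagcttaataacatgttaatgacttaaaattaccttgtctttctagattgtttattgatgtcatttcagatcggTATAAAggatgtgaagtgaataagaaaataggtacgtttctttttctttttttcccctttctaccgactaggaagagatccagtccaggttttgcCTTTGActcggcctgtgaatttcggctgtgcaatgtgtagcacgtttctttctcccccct
The GPC4 window had a GC content of 76.0%, 2 GC boxes and 0 matches to the other motifs. The GPC6 window had a GC content of 37.6%, 0 GC boxes, 1 TATA box and 1 TCF/LEF core. Over 35116 promoter windows of that length the median GC content was 58.0%, and 42.6% held a GC box, 10.7% a TATA box and 11.2% a TCF/LEF core. GPC2, which also rose between day 3 and day 5, had a window with a GC content of 66.8%, 3 GC boxes and 0 matches to the other motifs. GPC1, called higher on day 3 than on day 0, had a GC content of 84.0% and 4 GC boxes. The window of GPC5, near the floor, had 62.4%, 2 GC boxes and 1 TATA box. SDC4, called lower on day 3 than on day 0, had 73.6% and 8 GC boxes. For GPC3 and SDC2 no window was found. These are matches of letters and describe the windows only, and a tie between window and direction of change was not tested.

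Among the syndecans, SDC3 and SDC1 rose to day 3 and fell again by day 5, SDC2 rose between day 3 and day 5, and SDC4 fell by day 3. SDC3, the syndecan of the nervous system and in rodents a receptor of the growth factor PTN, stood at an FPKM of 8.36 at day 0, 37.6 at day 3 and 19.8 at day 5. Day 3 was the highest and day 0 the lowest of the 3 values. It rose 4.50-fold in the step of day 0 to day 3 (log2 ratio 2.17 ± 0.34), with q = 0.000596 in the authors' deposited table, and then fell by 0.93 ± 0.35 on that scale, with q = 0.00401 in the authors' deposited table. At day 5 it was still 2.37-fold above day 0 (log2 ratio 1.24 ± 0.36), with q = 0.000596 in the authors' deposited table.

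SDC1, the syndecan of epithelia and plasma cells (CD138), stood at an FPKM of 17.0 at day 0, 36.2 at day 3 and 17.9 at day 5. It rose 2.13-fold in the step of day 0 to day 3 (log2 ratio 1.09 ± 0.39), with q = 0.000596 in the authors' deposited table, and fell by 1.02 ± 0.37 between day 3 and day 5, with q = 0.00157 in the authors' deposited table. Day 5 stood close to day 0, with a log2 ratio of 0.07 ± 0.41 and no call.

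SDC2 (chromosome 8, 97505882 to 97624037), known from mesenchymal cells, had the highest FPKM of the 4 syndecans on each day, with 43.9 at day 0, 50.9 at day 3 and 94.6 at day 5. It rose 1.86-fold in the step of day 3 to day 5 (log2 ratio 0.89 ± 0.41, with q = 0.0129 in the authors' deposited table) and 2.15-fold between day 0 and day 5 (log2 ratio 1.11 ± 0.41, with q = 0.000596 in the authors' deposited table). On day 5 it ranked 873rd of all genes, above every glypican. SDC4 (chromosome 20, 43953929 to 43977064), which sits in focal adhesions, stood at an FPKM of 26.0 at day 0, 13.8 at day 3 and 16.3 at day 5. On the log2 scale it fell by 0.91 ± 0.40 up to day 3, with q = 0.0106 in the authors' deposited table, and day 5 was called different from neither earlier day (log2 ratio -0.68 ± 0.40 against day 0 and 0.23 ± 0.39 against day 3). Its pseudogene SDC4P is listed at 0 on each day.

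The sum of the 4 syndecan values was an FPKM of 95.3 at day 0, 139 at day 3 and 149 at day 5. SDC2 made up 46.1% of it on day 0, 36.7% on day 3 and 63.7% on day 5, and SDC3 8.78%, 27.1% and 13.3%. SDC4 made up 27.2% on day 0 and 9.98% and 10.9% on the later days. The ratio of the glypican sum to the syndecan sum was 2.34 at day 0, 0.959 at day 3 and 1.22 at day 5. These sums and ratios rest on 1 group value per gene and day with no spread between libraries, and the differences between them, among them the day 3 ratio near 1, were not tested.

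**Figure D2:**
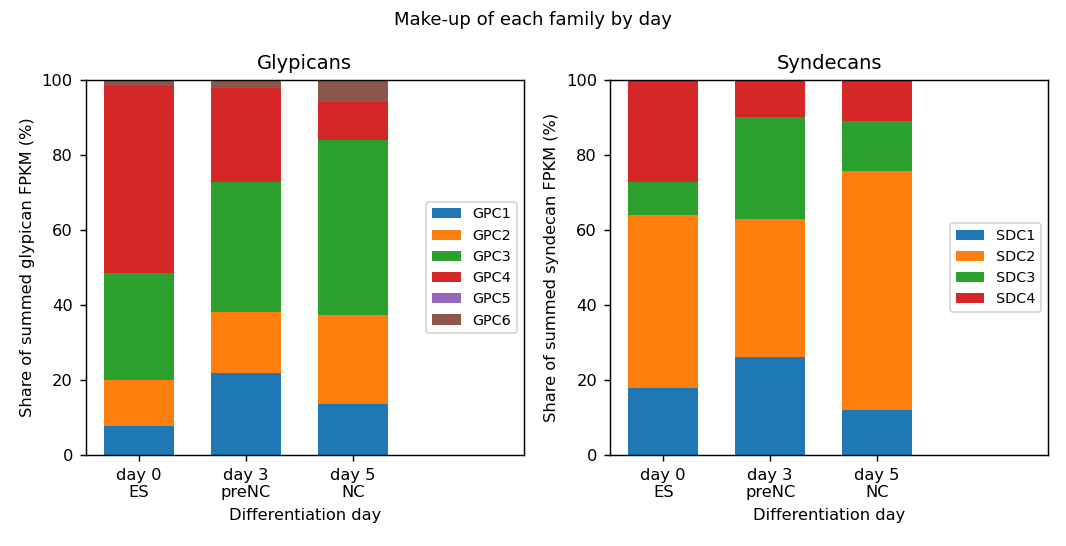
Stacked bars give each gene's share in percent of the summed FPKM of its family on days 0, 3 and 5, for glypicans (left) and syndecans (right). The GPC4 share is 49.8% at day 0, 25.2% at day 3 and 10.2% at day 5, and SDC2 holds 63.7% of the syndecan sum on day 5.

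SDC1 and SDC3 moved in the same direction at each step, and their promoter windows are shown for that reason, with capitals as above. SDC1 has a pair of annotated starts.
SDC1, outer start (chr2:20225476-20225725, minus strand): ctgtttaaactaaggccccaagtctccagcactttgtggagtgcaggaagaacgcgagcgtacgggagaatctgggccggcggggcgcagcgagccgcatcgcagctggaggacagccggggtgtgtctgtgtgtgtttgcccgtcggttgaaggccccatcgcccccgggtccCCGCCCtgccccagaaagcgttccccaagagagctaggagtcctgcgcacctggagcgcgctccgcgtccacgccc
SDC1, inner start (chr2:20225131-20225380, minus strand): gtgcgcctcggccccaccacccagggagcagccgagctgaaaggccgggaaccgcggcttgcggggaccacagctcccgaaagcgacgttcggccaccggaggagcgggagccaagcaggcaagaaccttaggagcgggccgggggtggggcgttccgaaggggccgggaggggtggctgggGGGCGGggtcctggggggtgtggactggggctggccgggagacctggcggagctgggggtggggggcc
SDC3 (chr1:30908759-30909008, minus strand): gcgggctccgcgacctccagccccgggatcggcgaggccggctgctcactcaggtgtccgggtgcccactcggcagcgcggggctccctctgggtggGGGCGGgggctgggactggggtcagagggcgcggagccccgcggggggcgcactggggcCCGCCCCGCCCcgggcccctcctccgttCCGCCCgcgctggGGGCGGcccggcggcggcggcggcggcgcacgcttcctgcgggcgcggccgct
The GC content was 66.4% and 75.2% for the SDC1 windows, with 1 GC box each, and 83.6% for the SDC3 window, with 5 GC boxes. None of the 3 held a TATA box or a TCF/LEF core in these letters. The genes lie at chromosome 2, 20400558 to 20425194 (SDC1), and chromosome 1, 31342313 to 31381480 (SDC3), in hg19.

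Counted over both families on day 3 against day 0, 3 of 9 tested members were higher (GPC1, SDC1 and SDC3), where 8.96% of all tested genes were, and 2 were lower (GPC4 and SDC4), where 11.6% of all tested genes were. GPC2, GPC3, GPC6 and SDC2 were not called, and GPC5 was not tested. The median log2 ratio of FPKM plus 1 was -0.22 for the 9 members and 0.03 for the 16231 tested genes. The calls of GPC1 and SDC4 were lost at a q threshold of 0.01 and also with p read from a normal distribution of the deposited statistic (the normal p).

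On day 5 against day 3, 4 of 10 tested members were higher (GPC2, GPC3, GPC6 and SDC2), where 5.93% of all tested genes were, and 3 were lower (GPC4, SDC1 and SDC3), where 6.68% were. GPC1, GPC5 and SDC4 were not called. The median log2 ratio of FPKM plus 1 was 0.22 for the members and -0.04 for the 15932 tested genes. The calls of GPC3, GPC4 and SDC2 were lost at a q threshold of 0.01 and under the normal p, and that of SDC3 under the normal p.

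On day 5 against day 0, 4 of 10 tested members were higher (GPC5, GPC6, SDC2 and SDC3), where 12.2% of all tested genes were, and 1 was lower (GPC4), where 14.7% were. The other 5 were not called. The median log2 ratio of FPKM plus 1 was 0.45 for the members and -0.01 for the 16409 tested genes. The call of GPC5 was lost at a q threshold of 0.01, under the normal p and with a minimum FPKM of 1. Over the 3 comparisons, which share days, each of the 10 members was called at least once, in 17 of 29 tested cases. Of those 17 calls, 10 held under the normal p. Of all tested genes, 8.96% were higher and 11.6% lower on day 3 against day 0, and 5.93% and 6.68% on day 5 against day 3. The normal p called 2361 of 16231 genes on day 3 against day 0 and 1242 of 15932 on day 5 against day 3. For day 5 against day 0 it called 3106 of 16409. The share of all genes called at least once was not counted, nor was a share pooled over the 3 comparisons. The count of 10 members and the 17 of 29 cases therefore have no background of their own.

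**Figure D3:**
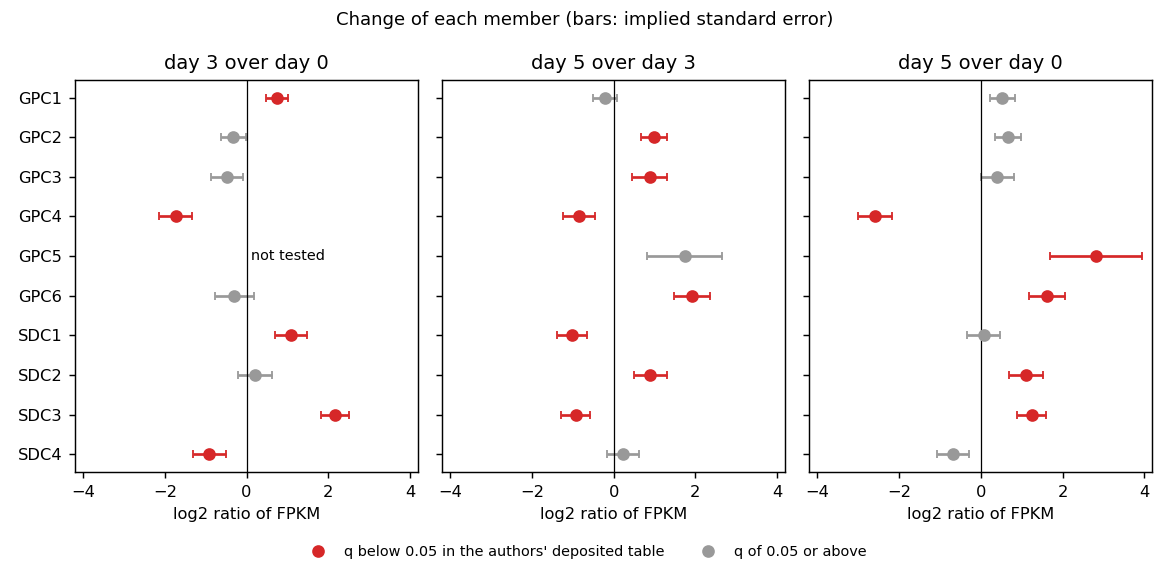
The log2 ratio of FPKM of each member is plotted for day 3 over day 0, day 5 over day 3 and day 5 over day 0, with bars for the implied standard error. Red points are called (q under 0.05, from the authors' deposited table), and GPC4 is red on the lower side in each panel, at -1.73, -0.86 and -2.59.

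The genes whose levels on the 3 days lay closest to those of GPC4, by Euclidean distance of log2 FPKM plus 1 among 10770 genes at an FPKM of at least 5 on 1 day or more, were ASNS (distance 0.295), NQO2 (0.358) and RBPMS2 (0.366). ASNS had an FPKM of 110.3 at day 0, 37.2 at day 3 and 22.2 at day 5. For SDC3 the closest were NUAK2 (distance 0.413), NPTX2 (0.424) and ZMIZ1 (0.488). NPTX2 had an FPKM of 9.81 at day 0, 40.2 at day 3 and 15.2 at day 5. Each distance rests on 3 group values.

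The core proteins are only the carriers, and the enzymes that build the chains were counted next. A short sugar linker is laid down on the core protein, the chain is polymerised, and sulfates are then added. Of 27 listed enzymes of these steps, day 3 against day 0 had 1 higher and 5 lower of 25 tested, day 5 against day 3 had 2 higher and 1 lower of 24, and day 5 against day 0 had 5 higher and 6 lower of 26. Of all tested genes, 8.96% were higher and 11.6% lower on day 3 against day 0, and 5.93% and 6.68% on day 5 against day 3. On day 5 against day 0 they were 12.2% and 14.7%, and these shares are the background for each list that follows. An unadjusted Cuffdiff p below 0.05 was held by 4839 of 16231 tested genes on day 3 against day 0. The numbers were 3375 of 15932 on day 5 against day 3 and 6233 of 16409 on day 5 against day 0. Counts of all genes under the normal p are given above.

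The linker enzymes counted 1 higher and 1 lower of 6 on day 3 against day 0, 0 called on day 5 against day 3, and 1 higher and 2 lower on day 5 against day 0, with a median log2 ratio of FPKM plus 1 of 0.15 over the whole course, where all tested genes had -0.01. XYLT2, which puts the opening xylose on the core protein, had an FPKM of 14.9 at day 0, 7.72 at day 3 and 8.19 at day 5 and fell by 0.95 ± 0.33 by day 3. Its partner XYLT1 (4.30, 2.81 and 2.30) was called lower only over the whole course. B3GALT6 (10.7, 19.6 and 15.1) rose by day 3, and B3GAT3 (21.3, 29.4 and 40.1), which adds the closing glucuronic acid, was higher on day 5 than on day 0.

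None of the 5 chain polymerases and their relatives (EXT1, EXT2, EXTL1, EXTL2 and EXTL3) was called by Cuffdiff in any comparison, with 0 at an unadjusted p below 0.05 and 0 under the normal p. For day 5 against day 0 their log2 ratios of FPKM plus 1 had a median of 0.29. The N-deacetylase/N-sulfotransferases and the epimerase GLCE counted 0 calls of 3 by Cuffdiff on day 3 against day 0 (0 at an unadjusted p below 0.05 and 0 under the normal p). They counted 1 higher of 4 at the other 2 comparisons, with a median log2 ratio of -0.06 for day 5 against day 0. The called gene was NDST4, at an FPKM of 0.0333 at day 0, 0.0405 at day 3 and 0.646 at day 5.

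The O-sulfotransferases, which set the fine pattern that growth factors recognise, counted 0 higher and 4 lower of 11 on day 3 against day 0 (8.96% and 11.6% of all tested genes), 1 and 1 of 9 on day 5 against day 3, and 3 and 4 of 11 on day 5 against day 0 (12.2% and 14.7% of all tested genes), with a median log2 ratio of -0.03 over the whole course. HS3ST5 had an FPKM of 5.26 at day 0, 0.627 at day 3 and 0.0694 at day 5 and fell at both steps, by 6.25 ± 0.82 on the log2 scale in all. HS3ST2 (1.29, 0.0443 and 0.0861) fell by day 3. Of the 6-O enzymes, HS6ST1 (31.7, 15.2 and 15.5) fell by 1.06 ± 0.31 by day 3, whereas HS6ST2 (2.08, 1.45 and 6.41) rose by 2.14 ± 0.52 between day 3 and day 5.

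The list of genes of chain editing, the heparanase family and anchor release counted 2 higher and 1 lower of 9 on day 3 against day 0. It counted 1 and 2 of 9 on day 5 against day 3, and 3 and 3 of 9 on day 5 against day 0, with a median log2 ratio of -0.01 in that last comparison. SULF1, which removes 6-O sulfates outside the cell, rose at both steps and stood at an FPKM of 1.83 at day 0, 4.06 at day 3 and 33.0 at day 5 (log2 ratio of day 5 to day 0 4.18 ± 0.42). Its relative SULF2 (9.59, 15.5 and 24.5) was called higher only over the whole course. NOTUM, a WNT inhibitor that removes the lipid of WNT proteins and has been reported to cut glypicans from their anchor, had an FPKM of 0.160 at day 0, 2.42 at day 3 and 5.42 at day 5 and rose by 3.92 ± 0.48 by day 3. GDPD2 (24.0, 12.9 and 6.99), of the glycerophosphodiester phosphodiesterase family, fell at both steps.

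**Figure D4:**
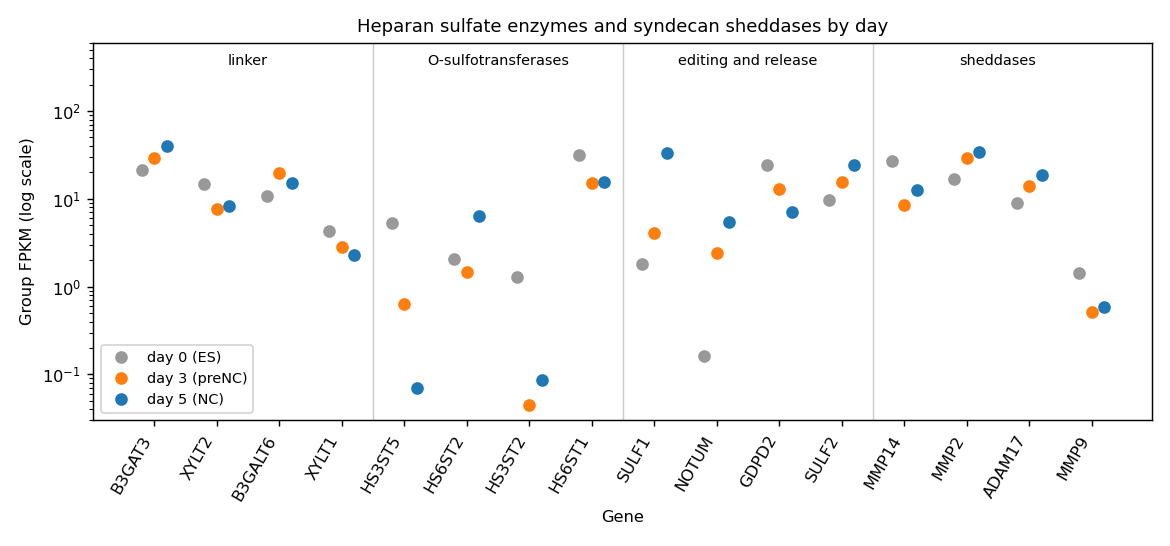
Group FPKM on a log axis for the called genes with the largest changes among linker enzymes, O-sulfotransferases, editing and release enzymes, and sheddases, on days 0, 3 and 5 (1 value per day). SULF1 stands at 33.0 on day 5 against 1.83 on day 0, and HS3ST5 at 0.0694 on day 5 against 5.26 on day 0.

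Proteases that shed syndecan ectodomains counted 1 higher and 2 lower of 6 on day 3 against day 0, and 2 and 1 of 6 on day 5 against day 0, with a median log2 ratio of 0.11. On day 5 against day 3 Cuffdiff called 0 of 6, with 0 at an unadjusted p below 0.05 and 0 under the normal p. The membrane protease MMP14 (26.9 at day 0, 8.41 at day 3 and 12.5 at day 5) and MMP9 (1.43, 0.518 and 0.593) fell by day 3, MMP2 (16.9, 28.8 and 34.5) rose by day 3, and ADAM17 (9.04, 14.1 and 18.7) was higher on day 5 than on day 0. The partners of the syndecan tail counted 2 higher and 1 lower of 10 on day 3 against day 0, 0 and 1 on day 5 against day 3, and 1 and 1 on day 5 against day 0, with a median of 0.15. PRKCA, the kinase that SDC4 binds, had an FPKM of 3.39 at day 0, 7.96 at day 3 and 4.01 at day 5, higher at the first step and lower at the second. EZR, the linker of membrane proteins to actin (106, 40.7 and 33.7), fell by day 3, and TIAM1, an activator of the GTPase RAC (4.37, 14.3 and 13.6), rose by day 3.

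Proteins that bind these chains were taken from a list of 17 heparin-binding growth factors and guidance partners. Of these, 3 were higher and 4 lower of 14 on day 3 against day 0, 6 and 1 of 16 on day 5 against day 3, and 8 and 1 of 16 on day 5 against day 0. Of all tested genes, 8.96% were higher and 11.6% lower in the first of these comparisons, 5.93% and 6.68% in the second, and 12.2% and 14.7% in the third. Their median log2 ratio of FPKM plus 1 over the whole course was 0.94. PTN, in rodents a ligand of SDC3, had an FPKM of 36.4 at day 0, 177 at day 3 and 86.9 at day 5. PTN was higher at the first step (log2 ratio 2.28 ± 0.37) and lower at the second (-1.02 ± 0.37), the same order of days as SDC3. A link between PTN and SDC3 was not tested. MDK, of the same list, stood at 551, 1251 and 1284. It was called higher at the first step and was not called at the second. FGF2 (30.6, 9.13 and 8.90) fell by day 3, SLIT2 (1.55, 0.676 and 6.05) fell by day 3 and rose between day 3 and day 5, and SLIT3 (0.189, 0.248 and 2.00) rose between day 3 and day 5.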

How the data were processed

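Poly-adenylated RNA of 6 libraries (3 groups of 2) was analysed from 1 deposited table. Reads were handled with TopHat2 2.0.10 and Cuffdiff 2.1.1 on hg19, per the submitters' processing notes. The sources used here give neither annotation nor strandedness. Per the file headers, the authors' FPKM is given per gene and group. The deposited test statistic was used as a score, and the p-value and q-value are those the authors deposited; recomputing the Benjamini-Hochberg adjustment over all 48572 tested cases moved no q by more than 5.25e-07.

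Genes of status OK count as tested, and calls used a q below 0.05. Log2 ratios used FPKM without a pseudocount, and medians of lists a pseudocount of 1. The implied standard error is the log2 ratio over the test statistic. Starts were printed counted from 1. The adjustment was tested on simulated data. The 10 members and the 11 other lists were chosen with earlier results of these data known. From each list up to 4 called genes with the largest change at an FPKM of at least 1 were named. NDST4 was named to make a count clear. MDK, SOX2, NANOG, TDGF1, FOXD3, TUBB3, STMN2, ELAVL4, KDR and KRT8 were named after their values were seen. Python 3.11.15, pandas 2.3.3 and scipy 1.17.1 were used.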

Additional observations from a re-analysis of the deposited data

How the results depend on the processing

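With a q threshold of 0.01, the members called lower on day 3 against day 0 numbered 1 in place of 2, and those called higher on day 5 against day 3 numbered 2 in place of 4. Under the normal p of the test statistic these counts were 1 and 2, and 1 member in place of 3 was called lower on day 5 against day 3. Adjusting p within each comparison changed no member's call, and a minimum FPKM of 1 ended that of GPC5 alone. Of 116 recomputed log2 ratios of members (other pseudocounts and scalings), 113 moved by less than their implied standard error, 3 moved by more, all of GPC5 with a pseudocount, and 0 changed direction. Each scaling shifted every ratio of a comparison by 1 constant, smaller in size than the smallest implied standard error of a member (0.28). The scalings therefore could not move a ratio by more than its standard error. Scaling to the FPKM sum without small RNA genes lowered no ratio and raised those of day 5 against day 0 the most: that sum changed by -0.17 on the log2 scale. A pseudocount of 0.1 moved 0 of 33 list medians beyond the median implied standard error of single genes, which is a wide limit for a median. Within it, the median of the editing and release list went from 0.28 to 0.63 on day 3 against day 0. On day 5 against day 3 it went from -0.19 to -0.50. No paired analysis was possible because only 1 FPKM value per gene and group is given, with no value per library. Leaving out libraries was not run for the same reason. The cause of each lost call was not tested. Depth is unknown, so how far it limits single values could not be worked out.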

Other observations

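Other proteoglycans were listed for comparison. The counts stand beside 8.96% higher and 11.6% lower of all tested genes on day 3 against day 0, 5.93% and 6.68% on day 5 against day 3, and 12.2% and 14.7% on day 5 against day 0. Of 7 other heparan sulfate proteoglycans, 2 were higher and 1 lower of 6 tested on day 3 against day 0 and also on day 5 against day 0, with a median log2 ratio of FPKM plus 1 of -0.21 over the whole course. On day 5 against day 3 Cuffdiff called 0 of 6, with 1 at an unadjusted p below 0.05 and 0 under the normal p. Of all 15932 tested genes in that comparison, 3375 had an unadjusted p below 0.05 and 1242 were called under the normal p. The collagen COL18A1, the source of endostatin, had an FPKM of 115 at day 0, 53.4 at day 3 and 50.7 at day 5 and fell by day 3. The co-receptors TGFBR3 (0.699, 4.72 and 2.85) and NRP1 (0.802, 4.11 and 2.52) rose by day 3.

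Chondroitin sulfate, the other large sugar chain of the cell surface, had synthesis genes that counted 2 higher and 3 lower of 11 on day 3 against day 0, 1 and 0 of 10 on day 5 against day 3, and 2 and 2 of 11 on day 5 against day 0, with a median of -0.21. The chain polymerase factor CHPF (39.3 at day 0, 14.4 at day 3 and 10.6 at day 5) and the epimerase DSE (17.8, 6.09 and 8.12) fell by day 3, the sulfotransferase CHST3 (1.32, 2.67 and 5.64) rose at both steps, and CSGALNACT2 (2.71, 4.70 and 5.47) was higher on day 5 than on day 0. The chondroitin sulfate proteoglycans counted 1 higher and 2 lower of 7 on day 3 against day 0, 0 and 1 on day 5 against day 3, and 2 and 2 on day 5 against day 0, with a median of -0.29. Neurocan (NCAN; 1.23, 11.2 and 7.16) rose by day 3 and brevican (BCAN; 2.16, 0.431 and 0.190) fell by day 3, CSPG5 (6.10, 5.28 and 2.48) fell between day 3 and day 5, and BGN (1.44, 2.24 and 3.95) was higher on day 5 than on day 0.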
